A study of Homo sapiens with 16 samples.

Results

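Activin, transforming growth factor beta (TGF-beta) and bone morphogenetic protein (BMP) genes were followed in human melanoma cells of the line A375 and in 2 catalase-transfected clones of it. The 9 genes were INHBA, TGFB1, TGFB2, FST, SMAD7, TGFBI, ID1, ID2 and ID3, out of 18417 genes that could be named on the arrays. They were chosen by gene symbol, as ligands, regulators and commonly used response genes of the pathway, and each had 1 transcript cluster, which is the set of probes summarised as 1 value. The groups were G10 cells and A7 cells, PCDNA3 cells and A375 cells, with 4 arrays each. G10 and A7 are single clones, obtained by clonal dilution from A375 cells that had taken up the human catalase cDNA in the vector pcDNA3. PCDNA3 cells are A375 cells carrying that vector without an insert, and A375 cells were not transfected. The transfected lines were kept under geneticin, whereas the labels name no such selection for A375 cells. As each catalase group is 1 clone, catalase and the history of the clone cannot be told apart. Control means here the average of the PCDNA3 and A375 means, and all values are log2 intensities of Affymetrix Human Gene 1.0 ST arrays.

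Activins and TGF-beta proteins are secreted dimers that bind pairs of receptor kinases, and the receptors then phosphorylate SMAD2 and SMAD3. BMPs use related receptors and act through SMAD1, SMAD5 and SMAD9. Both branches share SMAD4, and the SMAD complexes enter the nucleus and turn genes on or off. The pathway contains its own brakes: follistatin traps activin outside the cell, and SMAD7 and SMAD6 block the receptors from inside. In melanoma, TGF-beta family ligands are known both for slowing growth and for a part in invasion and change of cell state. ID1, ID2 and ID3 are classical BMP response genes, whose proteins bind the E proteins TCF3, TCF4 and TCF12 and keep them from DNA.

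On the arrays labelled G10, INHBA stood 5.66-fold above control, TGFB1 and TGFB2 were also higher, and FST and TGFBI were lower. On the arrays labelled A7, FST and ID1 were called lower than control, but neither call held against PCDNA3 cells alone or A375 cells alone, and no gene of the 9 was called higher. Between the clones, INHBA differed 11.3-fold, although its A7 mean lay close to the level of unexpressed genes (5.32 against 5.18). No gene of the 9 differed between PCDNA3 cells and A375 cells at an adjusted p under 0.05. These calls came from limma with Benjamini-Hochberg adjustment over all 33297 transcript clusters.

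The array medians ran from 5.85 to 5.97. Olfactory receptor genes, which are hardly expressed outside the nose, gave a 95th percentile of 5.18, taken as the level of unexpressed genes. CAT, which encodes catalase, lay at 7.74 to 8.55 on the G10 arrays and 8.92 to 9.12 on the A7 arrays, against 8.51 to 8.71 in PCDNA3 cells and 8.62 to 9.03 in A375 cells. CAT was thus not called higher in either clone (differences from control -0.38 in G10, adjusted p = 0.0526, and 0.37 in A7, adjusted p = 0.124), and it was lower in G10 than in A7 (-0.75, adjusted p = 0.00221 in limma). The sources used here do not say which part of CAT the probes cover. All 6 measured melanocyte lineage markers exceeded the olfactory receptor level in at least 1 group, though TYR lay below it in A375 cells (5.14). The mean of the 6 markers ran from 8.22 to 9.03 on G10 arrays and 8.72 to 9.18 on A7 arrays. It was 7.41 to 8.59 in PCDNA3 cells and 7.47 to 7.92 in A375 cells. The part of these markers in the results was not tested. Of 9 markers of other cell types 3 exceeded that level (KRT14, PDGFRA and LUM), and the list's mean ran from 4.61 to 4.91 on G10 arrays, 4.97 to 5.13 on A7 arrays, 4.73 to 4.86 in PCDNA3 cells and 4.87 to 4.96 in A375 cells. Those below it in every group were PTPRC, CD3E, PECAM1, CDH5, KRT5 and KRT1. KRT14 and the fibroblast markers PDGFRA (group means 5.21 to 5.92) and LUM (5.72 to 6.93) exceeded it in every group. The G10 arrays fell into pairs: replicates 1 and 2 correlated at 0.9941 and replicates 3 and 4 at 0.9918, while the other G10 pairs lay between 0.9844 and 0.9871. Replicates 3 and 4 also had the lowest array weights of all 16 arrays, 0.387 and 0.457, against 0.583 to 1.567 for the others. The differences of the 9 genes between G10 and control are therefore given with and without replicates 3 and 4. Between the clones this is done for some of the genes only. In such bulk RNA, fewer cells of a type and less RNA per cell cannot be told apart.

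The start sites of all 9 genes were found in RefSeq (GRCh38.p14), 11 sites in total, and the 250 bases before each were searched on both strands. The letters searched were CAGAC (the SMAD box), GGCGCC (a GC-rich SMAD element), TGANTCA (an AP-1 site), TGACG (the core of a cAMP response element) and TATAAA (the TATA box core). Windows are printed for the ligand genes INHBA and TGFB2, for the secreted response gene TGFBI, and for the ID genes, which moved together on the G10 arrays. Capitals mark SMAD boxes, the GC-rich SMAD element and TATA box cores on either strand.
INHBA, chr7:41703091-41703340, minus strand: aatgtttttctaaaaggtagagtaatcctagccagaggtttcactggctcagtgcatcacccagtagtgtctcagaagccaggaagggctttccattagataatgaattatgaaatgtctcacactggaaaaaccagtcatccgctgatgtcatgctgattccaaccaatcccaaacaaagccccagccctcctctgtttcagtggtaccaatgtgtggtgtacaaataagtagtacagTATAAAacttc
TGFB2, chr1:218345086-218345335, plus strand: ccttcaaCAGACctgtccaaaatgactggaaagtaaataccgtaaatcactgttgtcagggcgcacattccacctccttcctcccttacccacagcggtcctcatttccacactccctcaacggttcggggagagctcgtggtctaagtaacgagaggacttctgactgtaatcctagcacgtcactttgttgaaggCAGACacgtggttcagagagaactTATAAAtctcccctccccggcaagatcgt
TGFBI, chr5:136028738-136028987, plus strand: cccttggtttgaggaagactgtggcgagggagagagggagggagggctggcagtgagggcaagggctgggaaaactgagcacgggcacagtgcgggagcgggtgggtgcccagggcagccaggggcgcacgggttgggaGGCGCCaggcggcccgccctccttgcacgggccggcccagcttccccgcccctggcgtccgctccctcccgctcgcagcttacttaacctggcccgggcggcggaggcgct
ID1, chr20:31605039-31605288, plus strand: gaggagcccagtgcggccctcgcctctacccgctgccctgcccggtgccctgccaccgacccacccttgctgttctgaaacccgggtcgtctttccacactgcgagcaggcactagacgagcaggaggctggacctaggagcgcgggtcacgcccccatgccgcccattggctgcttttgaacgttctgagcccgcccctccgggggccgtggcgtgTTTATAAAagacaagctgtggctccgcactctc
ID2, chr2:8681806-8682055, plus strand: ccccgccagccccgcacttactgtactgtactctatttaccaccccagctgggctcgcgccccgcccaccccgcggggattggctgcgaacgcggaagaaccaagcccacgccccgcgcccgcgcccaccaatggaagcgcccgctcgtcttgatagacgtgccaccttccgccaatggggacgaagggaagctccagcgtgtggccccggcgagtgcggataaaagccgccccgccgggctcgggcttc
ID3, chr1:23559502-23559751, minus strand: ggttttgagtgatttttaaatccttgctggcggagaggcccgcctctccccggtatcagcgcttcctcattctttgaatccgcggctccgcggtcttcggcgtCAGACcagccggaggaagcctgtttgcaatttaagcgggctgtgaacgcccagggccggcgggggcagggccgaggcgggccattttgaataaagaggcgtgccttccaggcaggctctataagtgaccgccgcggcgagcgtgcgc

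The SMAD box was found before TGFB2 (from -243 and from -53, counted from the start site), before ID3 (from -147) and before SMAD7, and in none of the other windows of the 9 genes. It occurs in 38.0% of 35116 RefSeq windows of the same length. GGCGCC, present in 16.4% of windows, was found only before TGFBI, from -111. TATAAA, present in 10.7% of windows, was found before INHBA (from -11), TGFB2 (from -29), ID1 (from -31, with an overlapping match on the other strand) and SMAD7. TGANTCA, in 6.57% of windows, was found before FST, and TGACG, in 21.2%, before TGFB2 and ID3, where it overlaps the SMAD box of ID3. No window of ID2 or TGFB1 held any of the letters searched. These are matches of letters, and binding was not measured.

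In G10 cells, 3 of the 9 genes were higher than control (INHBA, TGFB1 and TGFB2) and 2 were lower (FST and TGFBI), at an adjusted p under 0.05 in limma. In the same comparison, 17.8% of all transcript clusters were called, 9.92% higher and 7.9% lower. Of the 13753 named genes above the olfactory receptor level, as all 9 genes were, 30% were called. The median difference of the 9 genes was 0.01, against -0.03 over all named genes. The arrays of the groups did not overlap for 4 of the 9 genes, and for 10.3% of all clusters. At the limits that the methods name for functional classification (a log2 difference of 1 or more, with p below 0.001, here adjusted), 2 of the 9 genes were called (INHBA and FST), where 1.59% of all clusters were.

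INHBA encodes the chain that pairs with itself to form activin A. Its level was 9.32, 9.46, 8.37 and 8.12 on the G10 arrays and 5.27, 5.46, 5.22 and 5.35 on the A7 arrays, against 5.86, 6.88, 7.67 and 5.81 in PCDNA3 cells and 6.66, 6.10, 5.64 and 5.92 in A375 cells. Every G10 array lay above every other array, and every A7 array lay below every other array. The group means were 8.82 ± 0.67 in G10 and 5.32 ± 0.10 in A7, against 6.55 ± 0.89 in PCDNA3 and 6.08 ± 0.43 in A375 (SD, n = 4 each). The A7 mean lay close to the 5.18 level of unexpressed genes, where signals are compressed. The difference of G10 from control was 2.50 ± 0.33 (log2, SE, 95% confidence interval 1.81 to 3.20), with an adjusted p of 5.59e-05 in limma. It was 2.26 against PCDNA3 cells alone (adjusted p = 0.000636) and 2.74 against A375 cells alone (adjusted p = 0.000134). Leaving out G10 replicates 3 and 4 gave 3.07. By size of change, INHBA was number 35 of the 18417 genes in G10. The study had singled out INHBA on these same arrays, so its rise is not independent evidence.

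**Figure D1:**
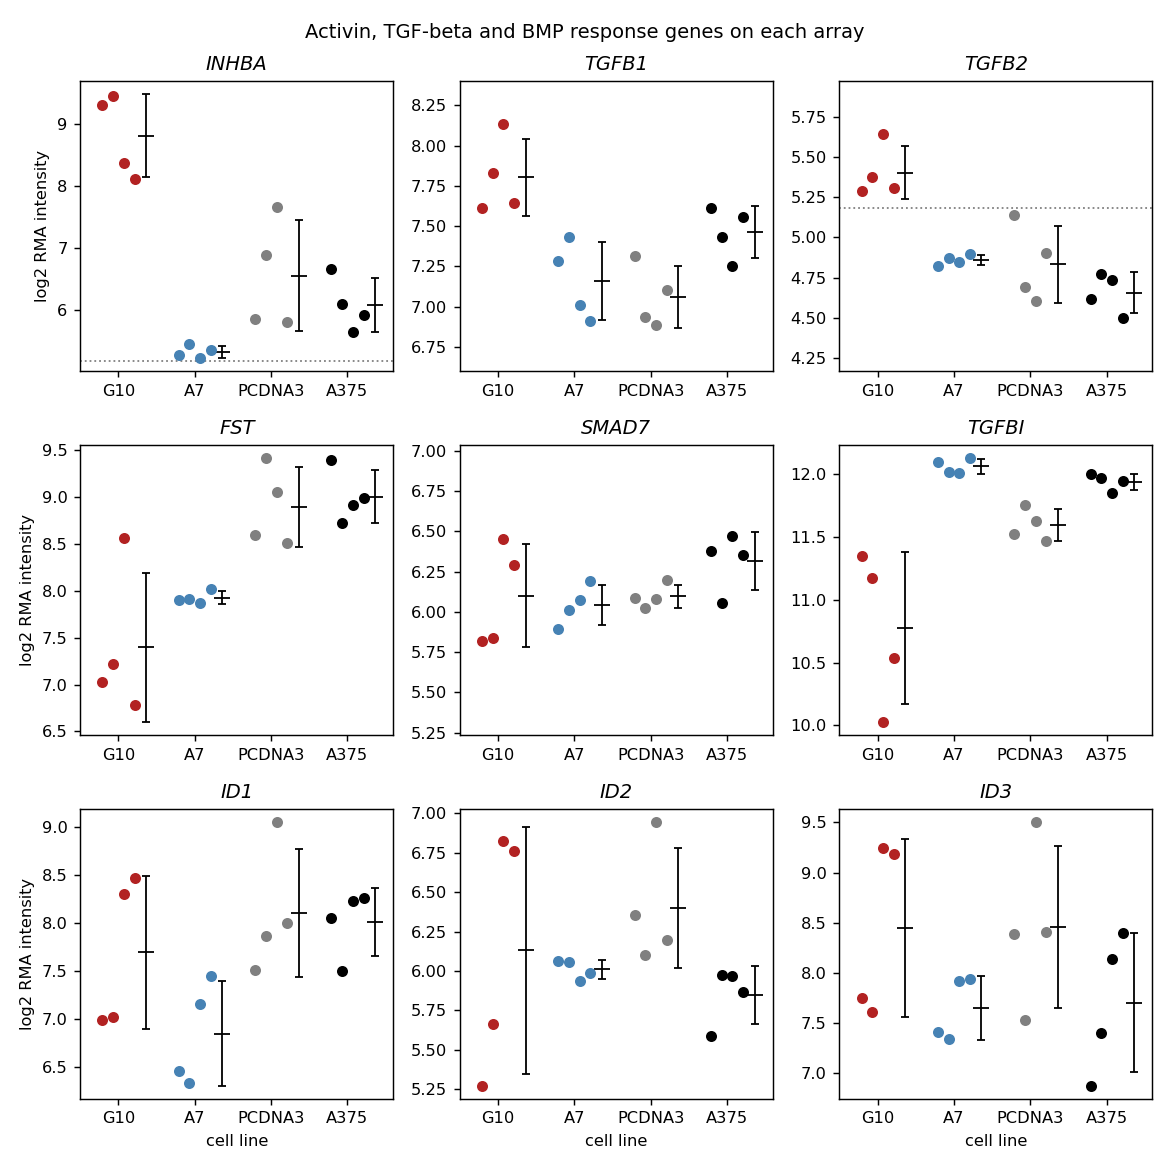
Level of each of the 9 genes on every array (y axis, log2 intensity) in G10, A7, PCDNA3 and A375 cells (x axis). Points are arrays, crosses with bars are group means ± SD, and the dotted line is the 5.18 level of unexpressed genes. The G10 points of INHBA, 8.12 to 9.46, lie above all others, and those of FST and the ID genes are spread widely.

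TGFB1, the most widely expressed TGF-beta ligand gene, measured 7.615, 7.83, 8.13 and 7.64 on the G10 arrays and 7.29, 7.44, 7.01 and 6.91 on the A7 arrays. In PCDNA3 cells it measured 7.31, 6.94, 6.89 and 7.11, and in A375 cells 7.614, 7.43, 7.25 and 7.56. The lowest G10 array thus only just exceeded the highest A375 array, while PCDNA3 cells lay lower. The difference of G10 from control was 0.54 ± 0.12 (log2, SE), adjusted p = 0.00552 in limma. Against A375 cells alone it was 0.34 and no longer called (adjusted p = 0.138), and against PCDNA3 cells alone it was 0.74 (adjusted p = 0.00191). Leaving out G10 replicates 3 and 4 gave 0.46 (adjusted p = 0.0399).

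TGFB2, a second TGF-beta ligand gene, measured 5.29, 5.37, 5.64 and 5.31 on the G10 arrays and 4.82, 4.87, 4.85 and 4.90 on the A7 arrays. In PCDNA3 cells it measured 5.14, 4.69, 4.60 and 4.91, and in A375 cells 4.62, 4.77, 4.74 and 4.50. Only the G10 arrays lay above the 5.18 level, so the difference has a lower limit alone. With every dimmer array raised to that level, G10 was at least 0.23 log2 units higher, and the measured difference from control was 0.66 ± 0.10 (SE, adjusted p = 0.000206 in limma). The value was 0.59 without G10 replicates 3 and 4. The third TGF-beta ligand gene, TGFB3, went the other way, at -0.36 ± 0.07 from control in G10 (adjusted p = 0.00219).

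FST encodes follistatin, the secreted protein that binds activin and keeps it from its receptors. It measured 7.02, 7.22, 8.56 and 6.79 on the G10 arrays and 7.90, 7.91, 7.87 and 8.02 on the A7 arrays, against 8.60, 9.42, 9.06 and 8.51 in PCDNA3 cells and 9.40, 8.72, 8.91 and 8.99 in A375 cells. The A7 arrays lay together below all control arrays, and 3 of the 4 G10 arrays lay lower still, whereas G10 replicate 3 reached the lowest PCDNA3 values. The difference of G10 from control was -1.55 ± 0.26 (log2, SE), a 2.93-fold lower level, with an adjusted p of 0.000485 in limma. The value was -1.83 without G10 replicates 3 and 4. In A7 the difference was -1.02 ± 0.26, a 2.03-fold lower level.

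TGFBI encodes a secreted matrix protein that was first found as a gene induced by TGF-beta. It measured 11.35, 11.17, 10.03 and 10.54 on the G10 arrays and 12.10, 12.02, 12.01 and 12.13 on the A7 arrays, against 11.52, 11.75, 11.63 and 11.46 in PCDNA3 cells and 12.00, 11.97, 11.85 and 11.94 in A375 cells. All G10 arrays lay below all others, and the A7 arrays lay above all others by a narrow margin. The difference of G10 from control was -0.99 ± 0.18 (log2, SE, adjusted p = 0.000757 in limma). G10 replicates 3 and 4 were the lowest 2 arrays, and without them the difference was -0.51 (adjusted p = 0.000858).

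The other genes of the 9 gave no call in G10 over all its arrays. SMAD7, the inhibitory SMAD that TGF-beta itself induces, measured 5.82 to 6.45 on G10 arrays and 5.90 to 6.19 on A7 arrays, against 6.02 to 6.20 in PCDNA3 cells and 6.06 to 6.47 in A375 cells. Its difference of G10 from control was -0.11 (95% confidence interval -0.35 to 0.14). The ID genes spread widely within G10. ID2 measured 5.27, 5.66, 6.83 and 6.76 on the G10 arrays but 5.94 to 6.06 on all A7 arrays, with 6.10 to 6.95 in PCDNA3 cells and 5.59 to 5.98 in A375 cells. ID3 measured 7.75, 7.61, 9.25 and 9.18 on the G10 arrays and 7.34 to 7.93 on the A7 arrays, against 7.53 to 9.51 in PCDNA3 cells and 6.87 to 8.40 in A375 cells. In both, G10 replicates 1 and 2 were low and replicates 3 and 4 high. The differences of G10 from control were -0.36 for ID1 (95% confidence interval -1.07 to 0.35), 0.01 for ID2 (-0.51 to 0.53) and 0.37 for ID3 (-0.46 to 1.19).

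Leaving out G10 replicates 3 and 4 changed the calls of 2 of these 4 genes. SMAD7 then differed from control by -0.38 (adjusted p = 0.0197 in limma) and ID2 by -0.66 (adjusted p = 0.018), both called lower. ID1 differed by -1.05 (adjusted p = 0.0502) and ID3 by -0.40 (adjusted p = 0.619). All control arrays stayed in this fit, although A375 replicates 3 and 4 also had higher ID1 and ID3 than replicates 1 and 2. The effect of this imbalance was not tested. With G10 replicates 1 and 2 alone, 7 of the 9 genes were called, 3 higher and 4 lower, against 5 over all arrays. In that fit 21.1% of all clusters and 36.4% of the named genes above the olfactory receptor level were called, also more than over all arrays.

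In A7 cells, FST and ID1 were the 2 genes of the 9 called lower than control. By limma 0 were called higher, and 0 at an unadjusted p under 0.05 as well. In this comparison 5.69% of all clusters were called, 3.46% higher and 2.23% lower, and 9.62% of the named genes above the olfactory receptor level were called. The median difference of the 9 genes was -0.16, against -0.01 over all named genes. The groups did not overlap for 4 of the 9 genes (INHBA, FST, TGFBI and ID1), and for 5.96% of all clusters. At the methods' limits 0 of the 9 genes and 0.535% of all clusters were called.

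ID1, whose protein binds E proteins and is a standard readout of BMP signalling, measured 6.997, 7.03, 8.31 and 8.47 on the G10 arrays and 6.46, 6.33, 7.16 and 7.45 on the A7 arrays. It measured 7.51, 7.86, 9.06 and 8.00 in PCDNA3 cells and 8.06, 7.50, 8.23 and 8.26 in A375 cells. All A7 arrays lay below all control arrays, the highest by a small margin, and the G10 arrays lay on both sides of that margin. The difference of A7 from control was -1.21 ± 0.33 (log2, SE), a 2.31-fold lower level, with an adjusted p of 0.0435 in limma. The adjusted p was 0.021 with only the arrays compared and 0.0199 with array weights. The call was lost in 9 of 12 fits that left out 1 array. These were A7 replicate 1 (adjusted p = 0.162), 2 (0.16) and 3 (0.0704), PCDNA3 replicate 2 (0.057), 3 (0.0643) and 4 (0.0639), and A375 replicate 1 (0.0711), 3 (0.0769) and 4 (0.0789).

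For FST, the difference of A7 from control, -1.02, had an adjusted p of 0.0283 in limma. The adjusted p was 0.00198 with only the arrays compared and 0.0035 with array weights. The call was lost without any 1 of the A7 replicates 1 (adjusted p = 0.0871), 2 (0.0803), 3 (0.0796) and 4 (0.0585). It was also lost without PCDNA3 replicate 2 (0.0513) or 3 (0.0504), and without A375 replicate 1 (0.0544). Against PCDNA3 cells alone the A7 differences were -0.97 for FST (adjusted p = 0.085) and -1.26 for ID1 (adjusted p = 0.0806), and against A375 cells alone -1.08 (adjusted p = 0.0555) and -1.16 (adjusted p = 0.115).

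INHBA and TGFBI did not pass the test in A7, although their arrays did not overlap with control. INHBA differed by -0.99 ± 0.33 (log2, SE, adjusted p = 0.0995 in limma), with A7 arrays from 5.22 to 5.46 and PCDNA3 arrays from 5.81 to 7.67. These A7 arrays lay close to the 5.18 level of unexpressed genes. TGFBI differed by 0.30 ± 0.18 (adjusted p = 0.436). When the spread was estimated without the G10 arrays, the adjusted p of TGFBI was 0.0196. The differences of A7 from control were -0.10 for TGFB1, 0.12 for TGFB2, -0.16 for SMAD7, -0.11 for ID2 and -0.43 for ID3, with adjusted p from 0.553 to 0.88.

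**Figure D2:**
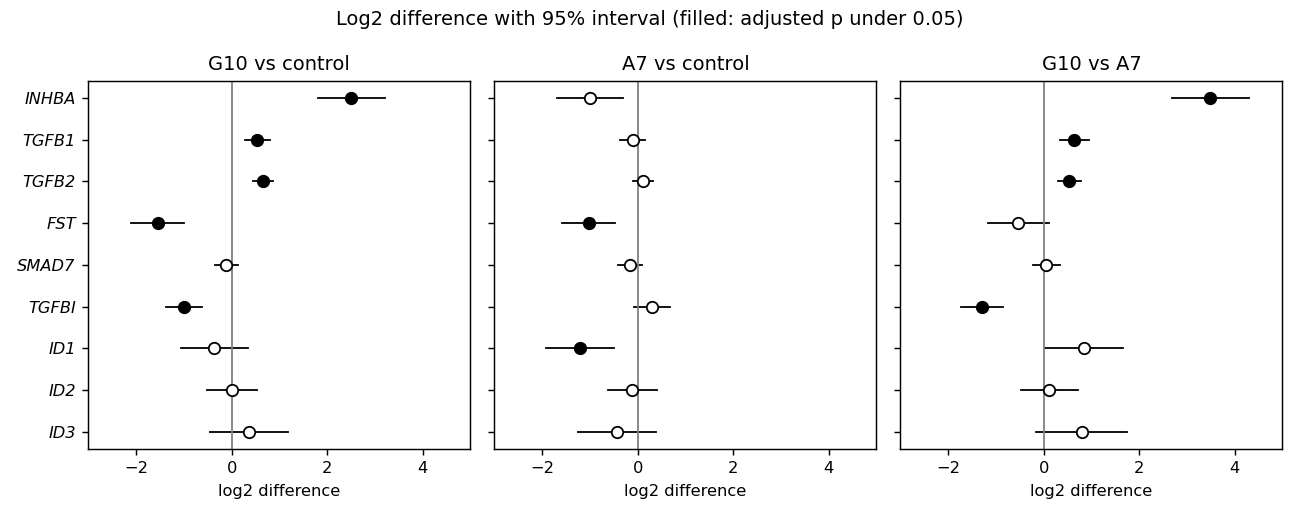
Difference of each of the 9 genes (y axis) from control in G10 and A7 cells, and between the clones (x axis, log2). Points are limma estimates and bars 95% confidence intervals. INHBA reaches 2.50 in G10 and -0.99 in A7, while FST lies below 0 in both, at -1.55 and -1.02.

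The clones were also set against each other directly, which shows for each gene whether the changes in G10 and A7 differed. Both changes are measured from the same control arrays, but the comparison of G10 with A7 does not use them in its means. Here 4 of the 9 genes were called, INHBA, TGFB1 and TGFB2 higher in G10 and TGFBI lower, where 15.2% of all clusters were called, 7.83% higher and 7.38% lower. Of the named genes above the olfactory receptor level 26% were called. At the methods' limits 2 of the 9 genes were called (INHBA and TGFBI), where 1.89% of all clusters were. The same 4 genes did not overlap between the clones, as did 17.4% of all clusters. The median difference was 0.54 over the 9 genes and -0.01 over all named genes.

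INHBA was 3.49 ± 0.38 log2 units higher in G10 than in A7 (adjusted p = 9.94e-06 in limma), number 21 of all named genes by size. Its A7 mean of 5.32 lay close to the level of unexpressed genes. TGFB1 was 0.64 ± 0.14 higher (adjusted p = 0.0052). TGFB2 was 0.54 ± 0.11 higher (adjusted p = 0.00361), and at least 0.23 higher once A7 was raised to the level of unexpressed genes. TGFBI was lower in G10 by -1.29 ± 0.20 (adjusted p = 0.000326), a 2.45-fold difference, and by -0.80 without G10 replicates 3 and 4. Among these 4 genes, the ligand genes stood on one side and the secreted matrix gene on the other. Of 27 other ligand genes, 1 was called higher in G10 than in A7 (GDF11, 0.57) and 2 lower (GDF15 and BMP8B, each -0.81).

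FST was not called between the clones, at -0.53 ± 0.30 (log2, SE, 95% confidence interval -1.16 to 0.11, adjusted p = 0.308 in limma). It was called without G10 replicate 3 alone (-0.92, adjusted p = 0.00516) and without G10 replicates 3 and 4 (-0.80, adjusted p = 0.0213). ID1 differed by 0.85 (0.03 to 1.66, adjusted p = 0.176) and ID3 by 0.80 (-0.15 to 1.75, adjusted p = 0.301), but these were 0.16 and 0.03 without G10 replicates 3 and 4. That fit kept all A7 arrays, although A7 replicates 3 and 4 were also the higher ones for ID1 (7.16 and 7.45) and ID3 (7.92 and 7.93). Replicate numbers were thus not matched in it, and how far this shrank the differences was not tested. On replicates 1 and 2 of both clones, ID1 measured 6.997 and 7.03 in G10 and 6.46 and 6.33 in A7. ID3 measured 7.75 and 7.61 on these G10 arrays and 7.41 and 7.34 on these A7 arrays. SMAD7 differed by 0.06 (-0.23 to 0.34) and ID2 by 0.12 (-0.48 to 0.72).

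Between the 2 controls, PCDNA3 cells and A375 cells, 0 of the 9 genes were called by limma, where 0.123% of all clusters and 0.211% of the named genes above the olfactory receptor level were. At an unadjusted p under 0.05, 1 of the 9 genes passed, TGFB1, which was -0.40 ± 0.14 (log2, SE) from the level of A375 cells (adjusted p = 0.258). ID2 was 0.55 higher in PCDNA3 cells (95% confidence interval -0.05 to 1.15) and TGFBI differed by -0.35 (-0.78 to 0.08), both without overlap of the arrays, as in 11.1% of all clusters. ID3 differed by 0.76 (-0.19 to 1.71) and INHBA by 0.47 (-0.33 to 1.27). PCDNA3 replicate 3 carried the highest INHBA, ID1, ID2 and ID3 of the control arrays.

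The order of the group means differed from gene to gene, and few neighbours in it could be separated. For INHBA the order was G10, PCDNA3, A375, A7, and only the step from G10 to PCDNA3 passed the test. For TGFB2, G10 came first and differed from A7, while A7, PCDNA3 and A375 all lay below the level of unexpressed genes and have no order. For TGFBI it was A7, A375, PCDNA3, G10, with only the step from PCDNA3 to G10 passing (0.82, adjusted p = 0.0109 in limma). For FST it was A375, PCDNA3, A7, G10 and for TGFB1 G10, A375, A7, PCDNA3, and in neither did any 2 neighbours differ at an adjusted p under 0.05. The same held for SMAD7 and the ID genes.

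Within the groups, the ID genes moved together on the G10 arrays and on PCDNA3 replicate 3, but not in every group. After each group's mean was subtracted, Pearson's r over the 16 arrays was 0.82 between ID1 and ID3, 0.81 between ID2 and ID3 and 0.72 between ID1 and ID2. For SMAD7 the r was 0.75 with ID1, 0.65 with ID3 and 0.64 with ID2, and for TGFBI it was -0.83 with SMAD7 and -0.82 with ID2. The r of TGFBI rest mainly on G10, where its deviations were 0.578, 0.397, -0.744 and -0.233. Elsewhere TGFBI deviated by no more than 0.162. In A7 cells, ID2 deviated by 0.052, 0.044, -0.074 and -0.02, opposite in sign to ID1 (-0.392, -0.52, 0.309 and 0.602). Of 13751 other genes, 0.553% had an r with ID3 as high as that of ID1, but 11.4% had an r with ID2 as high as that of ID1 and 15.5% as high as that of SMAD7. With SMAD7, 4.57% were as high as ID1 and 10.1% as high as ID2, and 2.95% were as low as TGFBI. With ID2, 2.1% were as low as TGFBI. These arrays share their RNA preparation and normalisation, and the r are descriptions over few arrays. In G10, A7 and A375 cells alike, replicates 3 and 4 had higher ID1 and ID3 than replicates 1 and 2, and in PCDNA3 cells replicate 3 was highest. The labels name no batch.

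**Figure D3:**
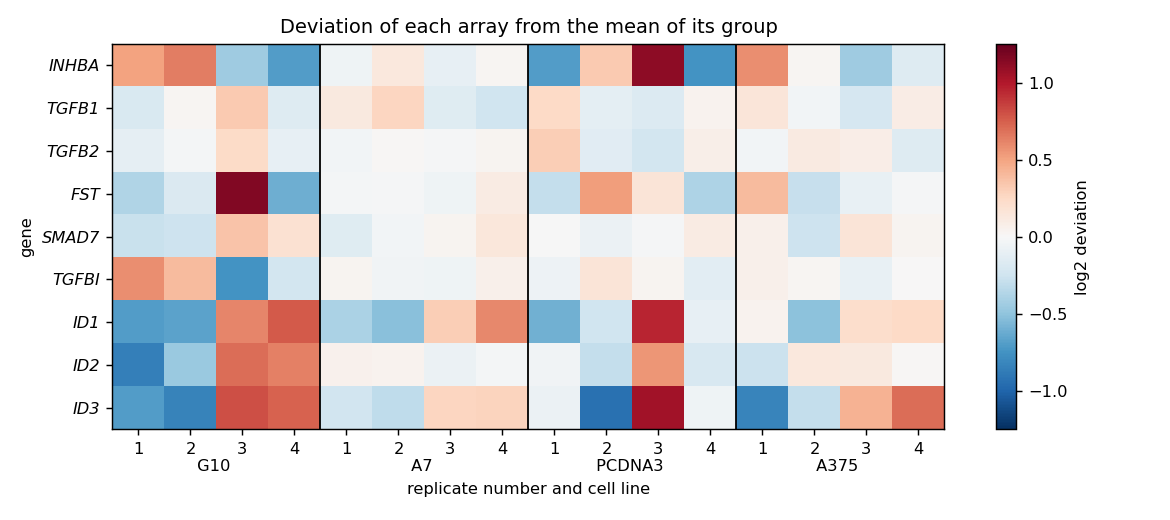
Deviation of each array (x axis, by replicate number and cell line) from the mean of its own group for the 9 genes (y axis), as a colour from blue (below) to red (above) in log2 units. ID1, ID2 and ID3 are red together on G10 replicates 3 and 4 and on PCDNA3 replicate 3, where ID3 lay at 9.51.

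The 2 genes with the widest range of group means were INHBA and FST, and the genes with the most similar pattern were sought among 1003 genes whose group means spanned at least 1 log2 unit. Over the 16 arrays, INHBA was most like HLA-DRB5 (Pearson's r = 0.940), SEMA3C (0.931) and PAPSS2 (0.927). PAPSS2, an enzyme that makes the sulphate donor of the cell, averaged 8.27 in G10, against 5.69 in PCDNA3 and 5.70 in A375. Its A7 mean, 4.83, lay below the level of unexpressed genes. SEMA3C, a secreted guidance protein, averaged 9.64 in G10 and 7.75 in A7, against 8.02 in PCDNA3 and 7.86 in A375. HLA-DRB5, a chain of an antigen-presenting receptor, has near-identical copies in the genome, and its probes may read them too. FST was most like ADAMTS1 (0.925), PDLIM4 (0.904) and TAC1 (0.887). ADAMTS1, a secreted protease, averaged 5.52 in G10 and 6.15 in A7, against 6.79 in PCDNA3 and 6.56 in A375.

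Other genes of the pathway were described from a list of 114 genes sorted by role, of which 108 had a transcript cluster of their own and 81 exceeded the olfactory receptor level. In G10, 16 of the 108 were called higher and 18 lower than control. In A7, 11 were called higher and 6 lower, and between the clones 15 were higher in G10 and 15 lower. Among the 81 above that level, 40.7% were called in G10, 18.5% in A7 and 33.3% between the clones, beside 30%, 9.62% and 26% of all named genes above it. The counts by role stand beside these same shares of named genes above the level, although not all listed genes exceeded it. Nothing particular to a role is read from them. Median differences of the 108 genes were -0.06 in G10, -0.05 in A7 and -0.02 between the clones. With G10 replicates 1 and 2 alone, 22 of the 34 genes called in G10 were still called in the same direction, 12 lost their call and 9 others gained one. Between the clones 23 of 30 were still called and 10 others gained a call. In that fit 36.4% (G10 against control) and 33.3% (G10 against A7) of the named genes above the olfactory receptor level were called, and 21.1% and 19% of all clusters.

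Among 27 other ligand genes, 1 was called higher and 4 lower in G10, and 1 higher and 1 lower in A7. Of named genes above the olfactory receptor level, 30% and 9.62% were called in either direction. Only 12 of the 27 ligand genes exceeded that level. BMP2, a bone morphogenetic protein, averaged 5.88 ± 0.35 in G10 and 5.90 ± 0.15 in A7, against 6.26 ± 0.23 in PCDNA3 and 6.92 ± 0.20 in A375 (SD, n = 4 each). Its differences from control, -0.71 and -0.69, were called, but against PCDNA3 cells alone they were -0.38 (adjusted p = 0.137 in limma) and -0.36 (adjusted p = 0.279). GDF15, a stress-induced member of the family, rose in A7 by 0.68 (adjusted p = 0.00448) and differed by -0.13 in G10, where it did not pass. GDF11 rose in G10 by 0.48, and by 0.80 with G10 replicates 1 and 2 alone, but did not pass against A375 cells alone (0.42, adjusted p = 0.131). BMP8B fell by 0.69 in G10. Its difference was -0.44 with G10 replicates 1 and 2 alone, and its second cluster gave -1.22 over all arrays. The probes may also read its close copy BMP8A. INHBB, the other activin chain, did not pass, at -0.19 in G10 and -0.12 in A7.

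Of 16 receptor genes, 2 were called higher and 2 lower in G10, and 3 higher and 1 lower in A7, beside the same 30% and 9.62%. TGFBR1, the signalling kinase of the TGF-beta receptor, averaged 9.13 ± 0.18 in A7, against 8.72 ± 0.12 in PCDNA3 and 8.50 ± 0.09 in A375. Its difference of A7 from control was 0.52 (adjusted p = 0.00624 in limma), and 0.41 against PCDNA3 cells alone (adjusted p = 0.0648). Between G10 and A7 it differed by -0.81 (adjusted p = 0.00019), and with G10 replicates 1 and 2 alone it was also called lower in G10 than control (-0.49). ACVR1C, a receptor kinase for nodal and some activins, rose in A7 by 0.65, though not against A375 cells alone (0.48, adjusted p = 0.077). ACVR2A, which binds activin, rose in A7 by 0.32 (adjusted p = 0.0399 in limma), although the A7 and control arrays overlapped. BMPR1B, a BMP receptor kinase, was at least 0.88 log2 units higher in G10 than in A7, where its mean of 5.11 lay below the level of unexpressed genes (measured 0.99, adjusted p = 7.88e-05). Against control it was 0.41 higher in G10 and at least 0.48 lower in A7, and the call in G10 was lost against A375 cells alone (0.22) and the call in A7 against PCDNA3 cells alone (-0.39). The co-receptors TGFBR3 and ENG differed from control by 0.63 and -0.50 in G10, but did not pass against A375 cells alone (0.46 and -0.39). With G10 replicates 1 and 2 alone, BMPR1B (0.39, adjusted p = 0.0981) and TGFBR3 (0.47, adjusted p = 0.0618) were not called against control.

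Of 7 other SMAD genes, 1 was called higher and 2 lower in G10, and 0 in A7 by limma, where 1 was higher and 1 lower at an unadjusted p under 0.05. Beside these stand the same 30% and 9.62% of named genes above the olfactory receptor level. SMAD5, a BMP-branch SMAD, differed from control by -0.44 in G10, and by -0.38 with G10 replicates 1 and 2 alone. SMAD3, a TGF-beta and activin SMAD, averaged 8.78 ± 0.11 in G10, against 8.86 ± 0.19 in PCDNA3 and 9.47 ± 0.28 in A375. Its called difference from control, -0.38, was -0.08 against PCDNA3 cells alone (adjusted p = 0.787) and -0.69 against A375 cells alone (adjusted p = 0.00232). SMAD4, the shared SMAD, rose in G10 by 0.29. Neither SMAD3 (-0.32) nor SMAD4 (0.23) was called with G10 replicates 1 and 2 alone. SMAD6, the second inhibitory SMAD, differed from control by 0.06 in G10 and -0.10 in A7.

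Of 12 regulators inside the cell, 5 were higher and 2 lower in G10, and 0 higher and 1 lower in A7 by limma (0 higher and 3 lower at an unadjusted p under 0.05), beside 30% of named genes above the olfactory receptor level called in G10 and 9.62% in A7. BAMBI, a decoy receptor without a kinase, rose in G10 to 12.26 ± 0.30, against 11.64 ± 0.18 in PCDNA3 and 11.76 ± 0.07 in A375. The difference was 0.56 (adjusted p = 0.00181), and 0.82 with G10 replicates 1 and 2 alone. TGIF1, a nuclear repressor of SMAD-driven transcription, was 1.25 higher in G10 than in A7 (adjusted p = 3.91e-05). Against control it was 0.57 higher in G10 and -0.68 in A7, both called. The call in G10 was lost against PCDNA3 cells alone (0.38, adjusted p = 0.123) and the call in A7 against A375 cells alone (-0.50, adjusted p = 0.0938). All 5 of its clusters were called in both clones, but all except the dimmest averaged 10.74 to 10.8, differed nearly alike and may not be separate readings. The dimmest (mean 6.44) gave 0.39 in G10 (adjusted p = 0.0438 in limma) and -0.50 in A7 (adjusted p = 0.0293). SMURF2, a ubiquitin ligase that marks receptors and SMADs for decay, rose in G10 by 0.62, and SKIL, a SMAD-binding repressor, by 0.40, though SKIL did not pass against A375 cells alone (0.39, adjusted p = 0.062). With G10 replicates 1 and 2 alone, TGIF1 (0.26, adjusted p = 0.165), SMURF2 (0.31, 0.0673) and SKIL (0.35, 0.133) were not called against control.

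Of 24 regulators outside the cell, 2 were called higher and 2 lower in G10, and 3 higher and 1 lower in A7. Beside these stand the same 30% and 9.62% of named genes above the olfactory receptor level, which 14 of the 24 exceeded. LTBP1, which holds latent TGF-beta in the matrix, differed between G10 and A7 by -1.02 (adjusted p = 0.000429 in limma) and from control by -0.70 in G10. ITGB8, an integrin chain that activates latent TGF-beta, averaged 10.08 ± 0.42 in G10 and 8.95 ± 0.14 in A7, against 9.85 ± 0.10 in PCDNA3 and 9.28 ± 0.17 in A375. It was 1.13 higher in G10 than in A7 (adjusted p = 0.000139). Its differences from control were 0.52 in G10 and -0.61 in A7, both called, but G10 differed from PCDNA3 cells alone by 0.23 (adjusted p = 0.413) and A7 from A375 cells alone by -0.33 (adjusted p = 0.331). Neither LTBP1 (-0.37, adjusted p = 0.0564) nor ITGB8 (0.25, adjusted p = 0.125) was called against control with G10 replicates 1 and 2 alone. FURIN, a protease that cuts ligand precursors, fell by 0.55 in G10. BMP1, a protease that cuts BMP antagonists, rose by 0.43 in G10 and 0.45 in A7. SOSTDC1, a BMP antagonist, was called higher in A7, but lay below the level of unexpressed genes in every group, so no size is given. FSTL3, a relative of follistatin, did not pass against control over all arrays, at 0.28 in G10 and -0.13 in A7, but was called in G10 with replicates 1 and 2 alone (0.50, adjusted p = 0.00168).

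Of 19 other target genes, 4 were called higher and 5 lower in G10, and 3 higher and 2 lower in A7, beside 30% and 9.62% of named genes above the olfactory receptor level called in either direction. FN1, the matrix protein fibronectin, averaged 9.84 ± 0.69 in G10 and 11.82 ± 0.25 in A7, against 11.97 ± 0.30 in PCDNA3 and 12.27 ± 0.29 in A375. Its difference from control was -2.28 in G10 (adjusted p = 4.99e-06 in limma), and -1.75 with G10 replicates 1 and 2 alone. CCN2, a matrix-associated growth regulator, rose in G10 by 0.72, and by 0.97 with those 2 arrays, but did not pass against PCDNA3 cells alone (0.46, adjusted p = 0.172). ACTA2, the smooth muscle actin, rose in A7 by 0.78 (adjusted p = 0.048), though not against A375 cells alone (0.61, adjusted p = 0.231). In G10 it differed by -0.05 over all arrays and was called higher with replicates 1 and 2 alone (0.58, adjusted p = 0.000875). SNAI1 and SNAI2, transcription factors of epithelial-mesenchymal transition, fell in both clones. Their differences from control were -0.67 and -0.50 in G10 and -0.57 and -0.59 in A7, and SNAI2 lost its call in G10 with replicates 1 and 2 alone (-0.27, adjusted p = 0.209) and against PCDNA3 cells alone (-0.44, adjusted p = 0.0516). The BMP target DLX5 rose in G10 by at least 0.76 (measured 1.06), to 5.93 ± 0.15 in G10, against 5.02 ± 0.08 in PCDNA3 and 4.72 ± 0.08 in A375, where it lay below the level of unexpressed genes. DLX2 differed from control by -1.20 in G10 (adjusted p = 0.00115), and by -1.60 with replicates 1 and 2 alone.

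Of the 3 genes of E proteins, the binding partners of the ID proteins, 1 was higher and 1 lower in G10 and 1 higher in A7. Again, 30% and 9.62% of named genes above the olfactory receptor level were called. TCF4 averaged 6.997 ± 0.211 in G10 and 6.77 ± 0.25 in A7, against 5.52 ± 0.10 in PCDNA3 and 5.29 ± 0.22 in A375 (SD, n = 4 each). It rose by 1.59 in G10 (adjusted p = 1.7e-07 in limma) and by 1.37 in A7 (adjusted p = 2.85e-06), with no overlap of arrays in either, and by 1.76 in G10 with replicates 1 and 2 alone. TCF12 fell by 0.51 in G10 and differed by 0.03 in A7. TCF3 did not pass in either clone, at -0.07 in G10 and -0.10 in A7.

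**Figure D4:**
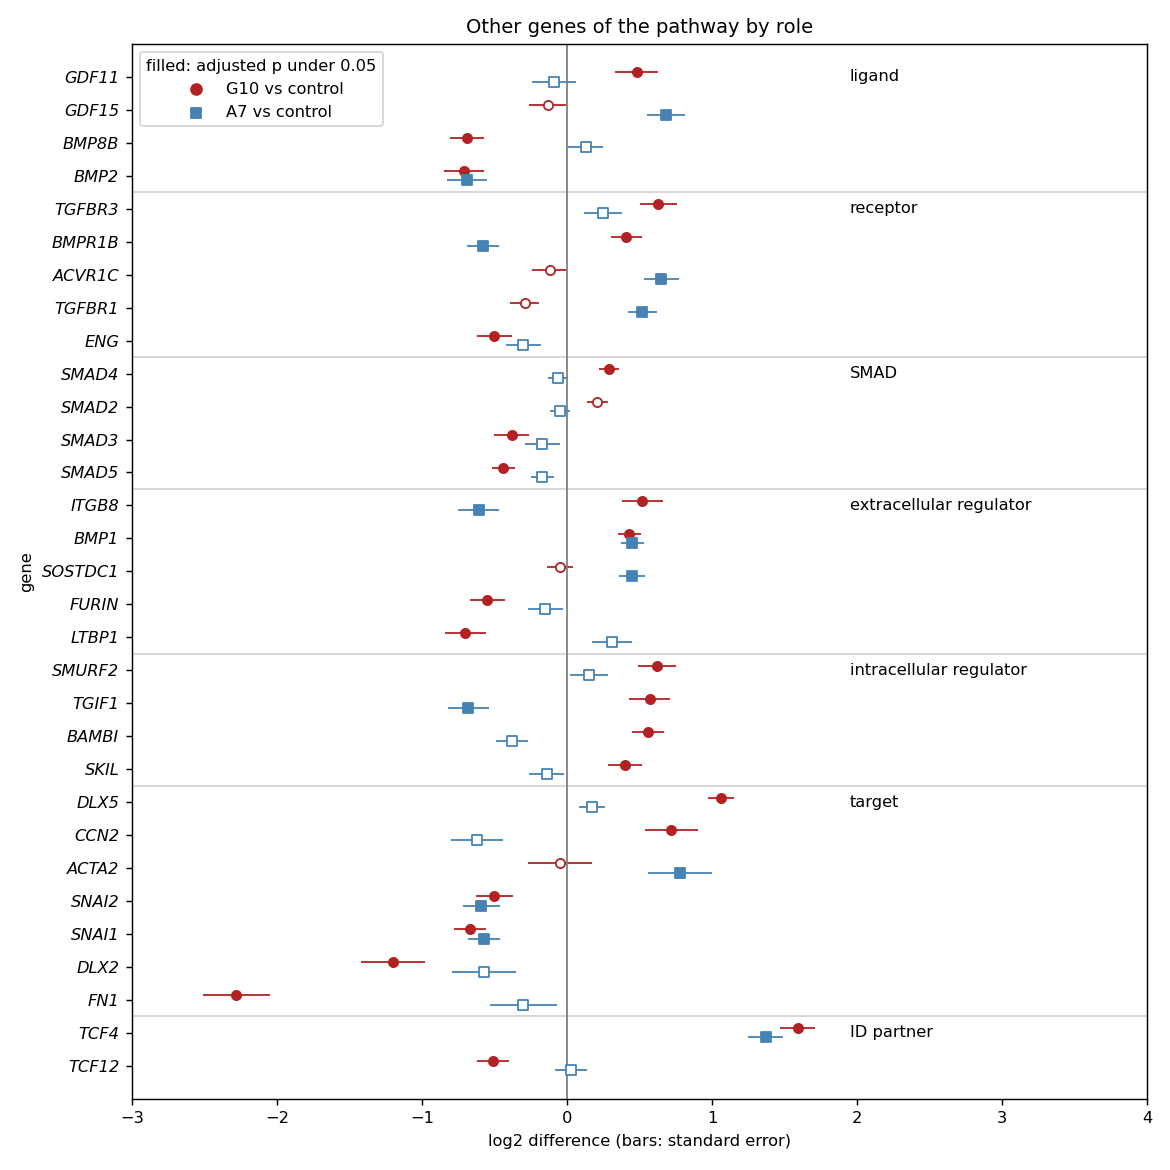
Difference from control (x axis, log2, bars are standard errors) of the other genes of the pathway that had the largest called changes in their role (y axis), in G10 and A7 cells. Filled symbols passed an adjusted p of 0.05. FN1 lies farthest to the left in G10, at -2.28, and TCF4 farthest to the right, at 1.59 in G10 and 1.37 in A7.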

How the data were processed

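The 16 arrays hold RNA of G10, A7, PCDNA3 and A375 cells, 4 biological replicates each by the labels. Probe signals were corrected, normalised and summarised by the authors with RMA, giving log2 intensities for 33297 transcript clusters as deposited. Which versions of RMA and limma were used upstream is not given in the sources used here. Low signals are compressed by this processing, so fold changes of dim genes are understated. Of the clusters, 19460 carried 1 gene symbol in the array's annotation, 1754 several and 12083 none, and genes were named only from those with 1, by the brightest. 

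In R 4.3.3, limma 3.58.1 was fitted with 1 mean per group (lmFit, eBayes, 3.57 prior degrees of freedom), with Benjamini-Hochberg adjustment across every cluster. Calls were made at an adjusted p under 0.05. The number of arrays limits the precision. Alternatives were each control alone, only the arrays compared, quantile normalisation, median centring, limma-trend, array weights, a filter on dim clusters, a replicate block, the methods' limits, the mean of a gene's clusters and leaving out each array. Leaving out both G10 arrays of lowest weight was chosen after seeing the data. The genes and lists were chosen with earlier results of these data known. Of each role, up to 3 genes with the largest called change in each comparison were named. ACVR2A, TGFB3, INHBB, SMAD6, FSTL3 and TCF3 were named after their values were seen. Sequences are from RefSeq, GRCh38.p14.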

Additional observations from a re-analysis of the deposited data

Results flagged for a closer look

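For 4 genes the change in G10 differed from the change in A7, by the limma test of G10 minus A7 (adjusted p under 0.05). INHBA differed by 3.49 log2 units, and the changes from control had opposite signs, 2.50 in G10 and -0.99 in A7, where only the change in G10 passed the test. TGFB1 differed by 0.64 and TGFB2 by 0.54, both higher in G10. TGFBI differed by -1.29, with -0.99 in G10 and 0.30 in A7, where again only the change in G10 passed. In each of the 4 genes all G10 arrays lay on one side of all A7 arrays, as in 17.4% of all clusters. No array stood apart from the other 3 of its group by Dixon's critical value in any of the 36 sets of gene and group that were checked, where chance gives about 1 in 20. This check looks for 1 array apart and cannot flag a split of 2 arrays against 2, as in G10.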

How the results depend on the processing

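The 5 calls in G10 and the 4 between the clones kept their direction under every alternative run, and TGFB1 lost its call in G10 with A375 cells alone as control. Under the methods' limits, a log2 difference of at least 1 with a p under 0.001, used here on the adjusted p, 2 of the 9 genes were called in G10 (INHBA and FST), 0 in A7 and 2 between the clones (INHBA and TGFBI). With A375 cells alone or PCDNA3 cells alone as control, 0 were called in A7. Leaving out single arrays gave 0 to 2 calls in A7, 5 in G10 and 4 to 5 between the clones. INHBA was called in A7 (-0.99, adjusted p = 0.0495) with the mean over a gene's clusters, where fewer features were tested.

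Only differences that were not called over all arrays changed sign. With A375 cells alone, ID2 in A7 was 0.16. With PCDNA3 cells alone, TGFB1 in A7 was 0.10, and in G10 ID2 was -0.27 and ID3 -0.01. With array weights, ID2 in G10 was -0.29 and ID3 -0.04, and between the clones ID2 was -0.19 and SMAD7 -0.09. Without both G10 arrays of lowest weight, ID2 in G10 was -0.66 (called lower, adjusted p = 0.018 in limma) and ID3 -0.40. Between the clones ID2 was then -0.54 and SMAD7 -0.21. Leaving out single arrays gave -0.23 to 0.29 for ID2 in G10, -0.11 to 0.41 for ID2 and -0.06 to 0.15 for SMAD7 between the clones, and -0.28 to 0.02 for FST and -0.22 to 0.30 for ID1 in PCDNA3 against A375 cells. The cause was not tested.

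The replicate numbers did not pair the arrays: deviations of arrays with the same number correlated at -0.19 to 0.30, and the best partner had the same number in 10 of 48 checks. With the replicate block, 5743 clusters were called in G10, 1751 in A7 and 4837 between the clones, against 5934, 1895 and 5065 without it. Among the 9 genes it added ID1 between the clones (0.85, adjusted p = 0.0236) and removed no call. For A7 against control it lowered the SE of ID1 from 0.33 to 0.20 (adjusted p = 0.00305 in limma). For ID3 the SE went from 0.39 to 0.22 (adjusted p = 0.355). With array weights, 582 clusters were called between PCDNA3 and A375 cells, against 41. TGFB2 near the level of unexpressed genes is limited by signal over background.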
